A study of Mus musculus with 10 samples.

Results

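Translation factors and cytosolic tRNA synthetases were followed as a gene module in inflamed mouse skin. Members were the genes whose symbols name an initiation factor (Eif), an elongation factor of the Eef1 or Eef2 group, or a cytosolic aminoacyl-tRNA synthetase (a letter followed by ars, and Eprs). This symbol rule used no measured value and found 79 of the 10694 genes in the deposited mouse tables, and all 79 were in both tables. Of these, 59 had enough reads to be tested. The other 20 had 18 to 86 reads over the 10 libraries (median 51.5), against 71 to 8097 (median 387) for the tested members.

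The samples came from c57/Bl6 mice aged 6 to 8 weeks, and the label of every library names ear skin. Imiquimod, which activates Toll-like receptors and inflames the skin much as psoriasis does, was applied topically for 6 days together with the solvent DMSO in the DMSO group (n = 4). In the benzamil group (n = 4) imiquimod was combined with benzamil, a blocker of the epithelial sodium channel, and the remaining group was untreated (n = 2). In the design text, however, untreated controls are described as back skin, so treatment and body site cannot be told apart in comparisons with that group. Whether each replicate is its own animal is not stated, and the p-values therefore refer only to how far these samples spread, and that spread may be technical.

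Translation begins when eIF2 carries the initiator tRNA to the small ribosomal subunit, where eIF3 acts as a scaffold, eIF1 and eIF1A guard the choice of start codon and the eIF4 factors bind the capped mRNA. During elongation eEF1A delivers each aminoacyl-tRNA, the eEF1B subunits recharge eEF1A with GTP, and eEF2 moves the ribosome along the mRNA. The synthetases load each tRNA with its amino acid, and several of their genes are known targets of the stress factor Atf4, which binds amino acid response elements. In epidermis, protein synthesis is known to be low in stem cells and higher in committed progenitors.

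Depth was low and uneven. The DMSO libraries held 259262 to 935714 reads, the benzamil libraries 138440 to 375455, and the untreated libraries 74614 and 71144. Levels are given as CPM, reads per 1e+06 reads of the library after scaling, where 3 reads were worth 3.12 to 11.0 CPM in DMSO libraries, 9.10 to 23.8 in benzamil libraries, and 40.4 and 44.5 in untreated ones. These limits cover counting error only. Reads of these 3' libraries were not divided by gene length, since each transcript gives 1 fragment near its end. Ribosomal RNA genes took 22.1% to 28.8% of reads with DMSO, 31.0% to 45.7% with benzamil, and 34.2% and 38.6% in untreated skin. All 9 keratinocyte markers were detected, and their summed level was 23339 and 27601 CPM in untreated libraries, 35300 to 50052 with DMSO and 56463 to 72793 with benzamil. Between the treated groups some of the markers differed. Mean CPM with DMSO and with benzamil was 8507 and 26636 for Krt2 and 9251 and 13250 for Krt10. Lor, Flg2 and Dsp also had higher means with benzamil, whereas Krt5, Krt14 and Krt1 had lower ones. Dsg1a hardly differed (518 and 508 CPM). Of all these only Krt2, Lor and Flg2 passed in edgeR's test at an adjusted p under 0.05. The sex of the mice is not given in the labels, and 1 untreated library had 0 CPM of the X-inactivation RNA Xist, whereas the other had 593, DMSO libraries 261 to 438 and benzamil libraries 364 to 531.

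Together the 79 members had a similar summed level after scaling in both treated groups and a lower one in untreated skin. Their summed level was 10124 ± 54.2 CPM in untreated skin (SD, n = 2), 14045 ± 945 with DMSO and 14523 ± 746 with benzamil (SD, n = 4 each). The treated groups overlapped. Eef1a1, the most abundant member, was higher in every benzamil library than in any DMSO library and added to the benzamil sum. These levels are not shares of a library's reads. The scaling factor of every benzamil library was below that of every DMSO library. Without scaling, the benzamil sums would therefore be lower relative to the DMSO sums. The classes differed in how the summed level of all members was made up. Elongation factors stood at 3564 ± 14.9 CPM untreated, 4211 ± 99.3 with DMSO and 5978 ± 420 with benzamil, and every benzamil library (5450 to 6330) lay above every DMSO library (4069 to 4297). Start-codon factors went the other way between the treated groups, with 253 ± 42.6 CPM untreated, 664 ± 71.4 with DMSO and 447 ± 29.0 with benzamil, again without overlap. The pair eIF5A and eIF6 had 100 ± 46.8, 483 ± 134 and 226 ± 49.97 CPM in the same order. These class sums are descriptions with no test.

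**Figure D1:**
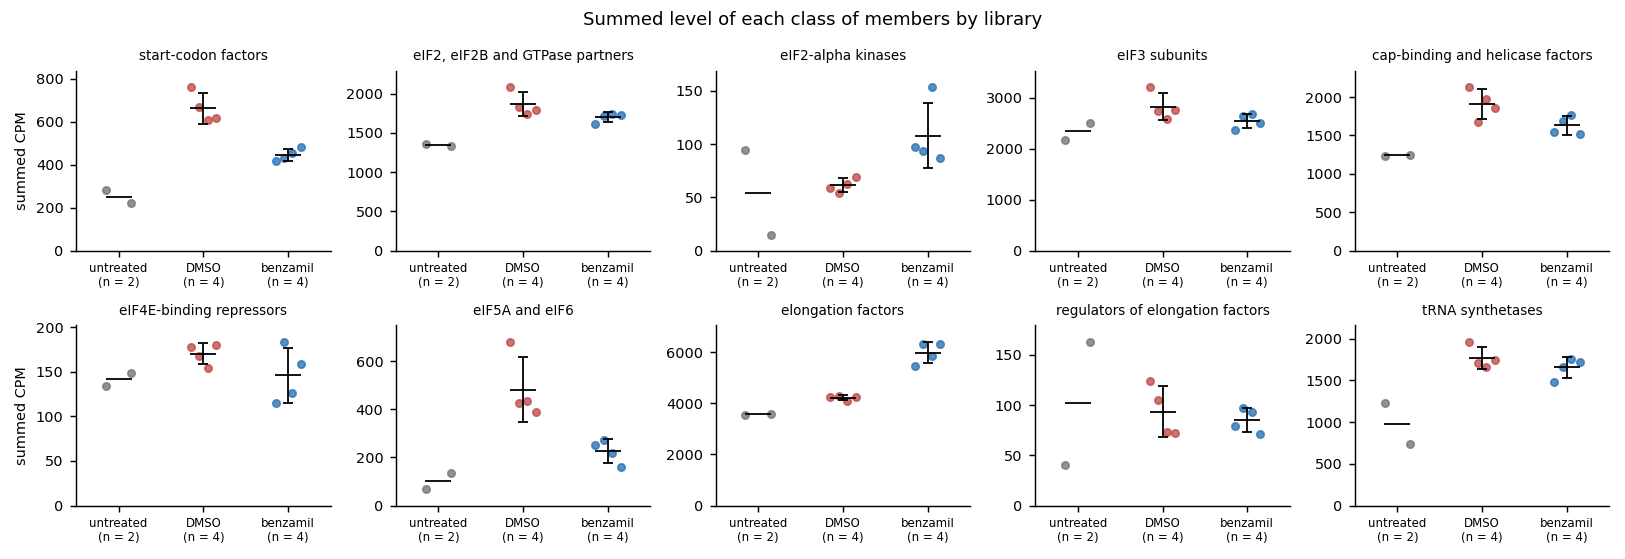
Summed CPM of the members of each class in each library (points), with the group mean (horizontal line) and, for groups of 4, the SD (bars); every axis starts at 0. Elongation factors are highest in the 4 benzamil libraries, at 5450 to 6330 CPM, whereas start-codon factors, eIF5A and eIF6 are highest in the 4 DMSO libraries.

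Of the other classes, all but the kinases of eIF2 alpha overlapped between the treated groups. The 13 eIF3 subunits summed to 2337 ± 240 CPM untreated, 2822 ± 269 with DMSO and 2547 ± 136 with benzamil. The 18 synthetases summed to 983 ± 342, 1769 ± 135 and 1655 ± 125 CPM, so both treated groups lay above the untreated libraries (742 and 1225). Cap-binding and helicase factors gave 1242 ± 5.34, 1908 ± 195 and 1630 ± 117 CPM, and eIF2 with its partners 1347 ± 17.4, 1863 ± 153 and 1701 ± 60.7 CPM. The least abundant classes were the eIF4E-binding repressors (146 to 170 CPM in treated means), the modifiers of elongation factors (85.1 to 93.7 CPM) and the kinases of eIF2 alpha. The kinases stood at 61.3 ± 6.44 CPM with DMSO and 108 ± 30.7 with benzamil, the only class besides the elongation factors in which every benzamil library (87.4 to 153) exceeded every DMSO library (54.0 to 69.4).

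The comparison of benzamil with DMSO asked how the channel blocker changed imiquimod-treated skin. The elongation factor genes Eef1a1 and Eef2 rose, 2 of 5 tested in their class, and 7 genes with initiation factor symbols and the synthetase genes Iars and Tars fell. Among the 59 tested members 2 rose (3.39%) and 9 fell (15.3%) in edgeR's quasi-likelihood test, whereas 9.91% of all 5245 tested genes rose and 12.1% fell. The share that fell was thus near that of all genes, and the share that rose was smaller. The counts by class given below rest on few genes each and stand beside these same shares over all genes. The median log2 fold change was -0.10 over the members and -0.01 over all tested genes. Groups did not overlap for 3 members higher with benzamil (5.08%, against 11.1% of all genes) and 10 lower (16.9%, against 13.4%). Scaling by total counts alone moved the median of all genes to -0.26 and gave 0 higher and 15 lower members (248 and 1009 genes in all, 19.7% higher against 45%). Without benzamil libraries 3 and 4, the shallowest treated ones, 1 member rose and 5 fell (284 and 300 of all genes), and with every library thinned to the depth of the smallest no member was called (14 of all genes higher, 11 lower).

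**Figure D2:**
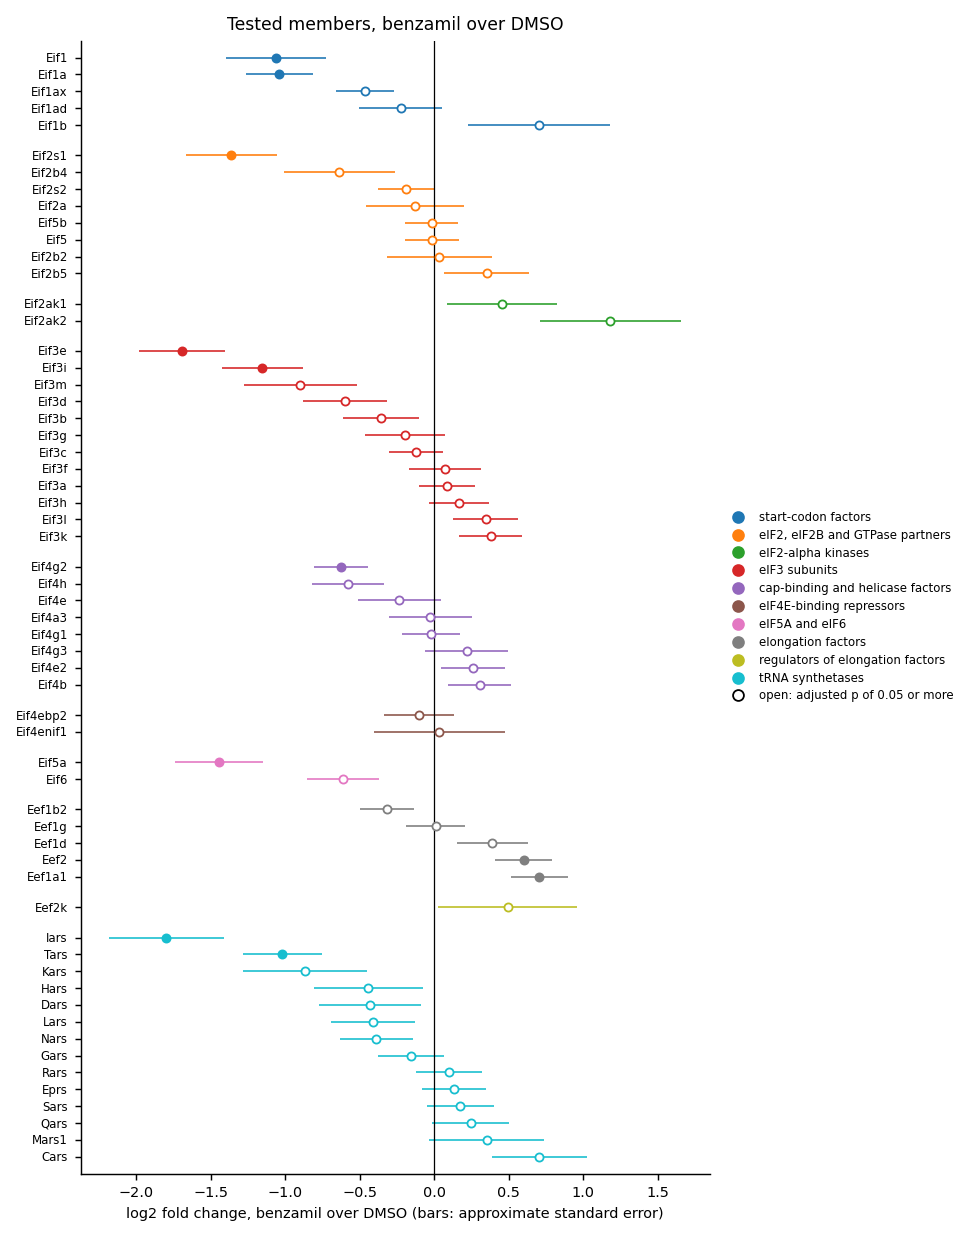
Log2 fold change of each of the 59 tested members, benzamil over DMSO, with its approximate standard error (bars), grouped and coloured by class. Filled points have an adjusted p under 0.05: Eef1a1 and Eef2 lie to the right of 0, and 9 members, from Eif4g2 at -0.62 to Iars at -1.80, lie to the left.

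Eef1a1, which encodes the factor that delivers aminoacyl-tRNA to the ribosome, was the most abundant member (chromosome 9, 78478449 to 78489151, mm10, the whole gene). Its level was 2058, 2453, 2413 and 2418 CPM in DMSO libraries 1 to 4 and 3418, 4083, 3722 and 3995 CPM in benzamil libraries 1 to 4, with 2046 and 1750 CPM in the untreated libraries. Every benzamil library lay above all the others, and Eef1a1 rose by 0.70 ± 0.19 (log2 fold change ± standard error, adjusted p = 0.0103). It also took more of the reads within the module, a share that does not depend on scaling: 13.3% to 18.1% of member reads with DMSO, 25.1% to 27.1% with benzamil, and 20.1% and 17.4% in untreated skin. With total counts alone its change was 0.44 (adjusted p = 0.135), beside the median of -0.26 for all genes. Eef1a1 has processed pseudogenes with near-identical sequence, and how the authors counted reads that match several places is not given in the sources used here.

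Eef2, the translocation factor (chromosome 10, 81176631 to 81182498), was measured at 845, 632, 603 and 747 CPM in the DMSO libraries. The benzamil libraries had 1062, 1068, 1047 and 1128 CPM and the untreated ones 848 and 1246 CPM. The treated groups did not overlap, and Eef2 rose by 0.60 ± 0.19 (adjusted p = 0.0245). Its call was lost with total counts (0.33, adjusted p = 0.245), without the filter on low counts (adjusted p = 0.0596), without DMSO library 2 (0.0732) or 3 (0.0816), and without benzamil libraries 3 and 4 (0.0668). The eEF1B subunits, which exchange the nucleotide of eEF1A, did not pass: Eef1b2 gave -0.32 ± 0.18 (adjusted p = 0.214), Eef1g 0.01 ± 0.20 (adjusted p = 0.981), and Eef1d, the third of them, was not called. Elongation factor mRNAs, whether or not called here, are among those with a terminal oligopyrimidine tract, whose translation depends on mTORC1. A link of this tract to the values was not tested.

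Among regulators of elongation only Eef2k, the kinase that inhibits eEF2, was tested. It had 11.0 to 29.1 CPM with DMSO, beside 13.3 to 53.4 CPM with benzamil, and did not pass (0.49 ± 0.46, adjusted p = 0.475). Eef1aknmt, which encodes a methyltransferase of eEF1A and was next to Eef2k in level, had 51 reads in all and was under the filter.

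**Figure D3:**
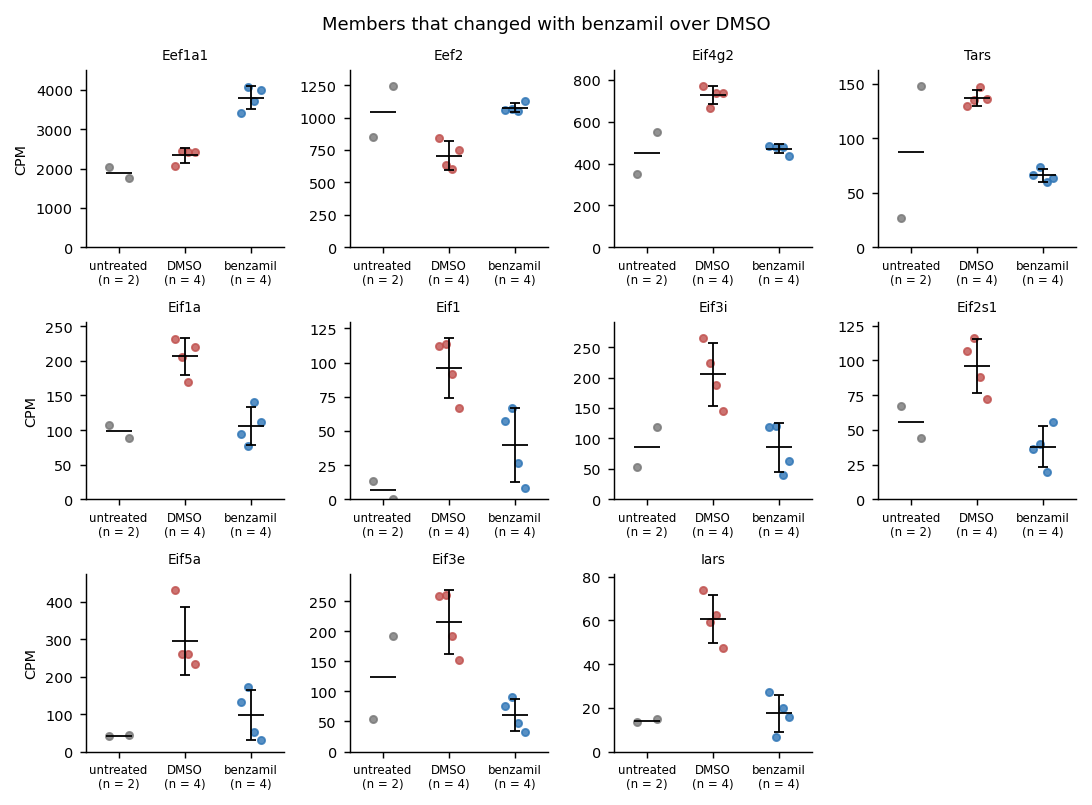
CPM of the 11 members that changed with benzamil over DMSO, by library (points), with the group mean (horizontal line) and, for groups of 4, the SD (bars); every axis starts at 0. Eef1a1 and Eef2 are higher in all 4 benzamil libraries than in any DMSO library, 8 members are lower in all 4, and Eif1 overlaps in 1 pair of libraries.

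Of 5 tested start-codon factors 2 fell and none rose. Eif1a, which encodes a form of eIF1A, the factor that with eIF1 keeps the scanning ribosome open, had 231, 205, 169 and 219 CPM in DMSO libraries and 94.0, 76.8, 140 and 111 CPM in benzamil libraries. All benzamil values lay below all DMSO values, near the untreated 108 and 89.0 CPM, and Eif1a fell by 1.04 on the log2 scale (standard error 0.23, adjusted p = 0.00181). The near-identical X-linked copy Eif1ax, the most abundant of the class, gave -0.47 ± 0.20 (adjusted p = 0.089), also without overlap. Reads may be split between these copies, so their separate values are uncertain.

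Eif1, which encodes the factor that rejects poor start codons, was at 112, 113, 92.0 and 66.6 CPM with DMSO and 57.6, 66.8, 26.7 and 7.94 CPM with benzamil. The groups met at DMSO library 4 and benzamil library 2. Its change of -1.06 ± 0.34 (adjusted p = 0.0245) lost its call without DMSO library 1 (0.0828) or 2 (0.0644) and without benzamil library 3 (0.0768) or 4 (0.0652), and was -0.61 without both of those benzamil libraries (adjusted p = 0.246). Eif1ad, placed in this class by its symbol only, did not pass (-0.22 ± 0.28, adjusted p = 0.608).

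Of 8 tested members of the eIF2 class 1 fell, the alpha subunit gene Eif2s1, whose protein is the target of the stress kinases. It had 107, 116, 88.3 and 72.2 CPM with DMSO, 36.4, 40.1, 20.0 and 55.6 CPM after benzamil, while untreated libraries had 67.3 and 44.5 CPM. The treated groups did not overlap (-1.36 ± 0.30, adjusted p = 0.00229), and limma on the deposited log2 values gave -0.81, also called. The beta subunit gene Eif2s2 had 464 to 660 CPM with DMSO, beside 431 to 538 CPM with benzamil, and did not pass (-0.19 ± 0.19, adjusted p = 0.494). Eif5b, which encodes the GTPase that joins the ribosomal subunits and was the most abundant of the class, stood at 490 ± 40.4 and 487 ± 30.4 CPM (-0.02 ± 0.18, adjusted p = 0.963), and Eif2a, an alternative carrier of initiator tRNA, gave -0.13 ± 0.33 (adjusted p = 0.816).

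Neither tested kinase of eIF2 alpha passed. The interferon-inducible kinase gene Eif2ak2 had 15.6, 16.2, 29.4 and 13.9 CPM with DMSO and 24.3, 30.1, 80.1 and 47.7 CPM with benzamil, a fitted 1.18 ± 0.47 (adjusted p = 0.0744) on 34 and 35 reads. The heme-regulated kinase gene Eif2ak1 gave 0.45 ± 0.37 (adjusted p = 0.399).

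Of 12 tested eIF3 subunits 2 fell and none rose. Eif3e (chromosome 15, 43250058 to 43282719), a subunit of the core of eIF3, had 259, 259, 191 and 153 CPM in DMSO libraries and 75.8, 90.1, 46.7 and 31.8 CPM in benzamil libraries. Every benzamil library was below every DMSO library, and its change of -1.69 ± 0.29 had the smallest adjusted p of the module in this comparison (0.000174). Eif3i, a subunit of the peripheral module that binds Eif3b, was at 265, 224, 188 and 144 CPM against 118, 120, 40.0 and 63.5 CPM, likewise without overlap (-1.15 ± 0.27, adjusted p = 0.00352). Without benzamil libraries 3 and 4 it gave -0.77 (adjusted p = 0.0787). The large subunits Eif3a and Eif3c, the most abundant of the class, stood at 635 ± 68.4 and 676 ± 83.7 CPM with DMSO and 672 ± 119 and 626 ± 51.7 CPM with benzamil, and neither passed (0.09 ± 0.19 and -0.12 ± 0.18, adjusted p = 0.774 and 0.675).

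Among 8 tested cap-binding and helicase factors 1 fell. Eif4g2, which encodes a scaffold that lacks the cap-binding eIF4E site and serves cap-independent initiation, had 770, 664, 739 and 736 CPM with DMSO and 485, 481, 480 and 437 CPM with benzamil. The benzamil values lay close together and below all DMSO values (-0.62 ± 0.18, adjusted p = 0.0155), and the change was -0.55 without benzamil libraries 3 and 4 (adjusted p = 0.11). Eif4g1, the scaffold of the cap-binding complex, had 581, 394, 493 and 444 CPM against 461, 504.2, 487 and 437 CPM, with overlapping groups (-0.02 ± 0.19, adjusted p = 0.959). The helicase cofactor Eif4h did not pass (-0.58 ± 0.24, adjusted p = 0.0852), although its groups did not overlap. Of the eIF4E-binding repressors, neither Eif4ebp2 (-0.10 ± 0.23, adjusted p = 0.79) nor Eif4enif1 (0.03 ± 0.44, adjusted p = 0.973) passed.

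Eif5a (chromosome 11, 69916714 to 69921958), which encodes the hypusine-bearing factor that relieves stalled ribosomes, had 431, 259, 261 and 233 CPM with DMSO. In benzamil libraries it had 133, 174, 53.4 and 31.8 CPM, and in untreated libraries 40.4 and 44.5 CPM. Benzamil values lay between untreated and DMSO values in libraries 1, 2 and 3, and below both untreated values in library 4. The change was -1.44 ± 0.29 (adjusted p = 0.00103). Leaving out benzamil libraries 3 and 4 reduced it to -0.94 (adjusted p = 0.0271). Eif6, which keeps the large subunit from joining early, did not pass (-0.61 ± 0.24, adjusted p = 0.0666).

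Of 14 tested tRNA synthetases 2 fell and none rose. Iars, the isoleucyl-tRNA synthetase gene (chromosome 13, 49682100 to 49734267), had 73.8, 59.4, 62.5 and 47.2 CPM with DMSO and 27.3, 6.68, 20.0 and 15.9 CPM with benzamil, with 13.5 and 14.8 CPM untreated. No benzamil library reached the lowest DMSO library, and Iars had the largest fitted decrease of the tested members (-1.80 ± 0.38, adjusted p = 0.00156, on 127 and 16 reads), which was -0.88 with limma, also called. Tars, the threonyl-tRNA synthetase gene (chromosome 15, 11382301 to 11399665), was at 130, 135, 147 and 136 CPM against 66.7, 73.5, 60.0 and 63.5 CPM. Both groups were tight and apart (-1.02 ± 0.26, adjusted p = 0.0073), and without benzamil libraries 3 and 4 Tars gave -0.91 (adjusted p = 0.0626). The most abundant synthetase genes did not pass: Eprs, for glutamyl- and prolyl-tRNA, gave 0.13 ± 0.21 (adjusted p = 0.697) and Rars, for arginyl-tRNA, 0.10 ± 0.22 (adjusted p = 0.781). Cars, named because it was the third member whose benzamil values all exceeded the DMSO values and chosen after its values were seen, was at 39.0 ± 12.7 and 70.1 ± 19.1 CPM and did not pass (0.71 ± 0.32, adjusted p = 0.113).

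Promoter sequences are shown for the synthetase genes because the response element through which Atf4 acts, TGATGNAA, can be read in them. RefSeq windows from 250 bases before to 50 after the start (GRCm38.p6) were at hand for 60 of the 79 members, 14 of the 21 that changed in any comparison and 11 of the 18 synthetases, and both strands were searched. The element was in 5 of 11 synthetase genes (45.5%), 2 of 49 translation factor genes (4.08%) and 4.51% of 27025 genes with a window. Shares over all genes with a window, here and for the motifs below, include genes not tested in this skin. They were not matched for expression or base composition. The stretches run 5′ to 3′ along the strand of the gene, with the element or its reverse complement in capitals. They lie at chr13:49682127-49682154 (plus strand) for Iars, chr15:11399656-11399683 (minus) for Tars, chr6:55037949-55038000 (plus) for Gars, chr8:111033708-111033759 (plus) for Aars and chr4:129189896-129189923 (plus) for Yars.
Iars: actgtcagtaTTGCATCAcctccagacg
Tars: aggagtcccgTTGCATCAgctggttagc
Gars: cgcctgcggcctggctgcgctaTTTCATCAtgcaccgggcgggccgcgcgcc
Aars: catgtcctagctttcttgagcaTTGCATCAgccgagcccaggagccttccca
Yars: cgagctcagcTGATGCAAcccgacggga
The letters are a match and not a measured site. The letters are the same in Iars, Tars and Aars, and Yars has their reverse complement. Aars has a second match, with its first base at position 10 after the start, that is not shown. Iars and Tars fell with benzamil, whereas Gars did not pass (-0.16 ± 0.22, adjusted p = 0.651). Aars and Yars were under the read filter, with 56 and 38 reads with DMSO and 12 and 19 with benzamil.

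The E-box CACGTG, the letters that Myc and related factors bind, was in 16 of 60 member windows (26.7%) and 8.09% of all. Aars, Iars and Tars hold it too, elsewhere in the window. It was found in members that moved in opposite directions with benzamil. Eef2, which rose (chr10:81176566-81176615, plus strand), and Eif5a, which fell (chr11:69921433-69921482, minus strand), are shown with 1 E-box each in capitals.
Eef2: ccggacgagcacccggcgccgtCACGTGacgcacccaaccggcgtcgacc
Eif5a: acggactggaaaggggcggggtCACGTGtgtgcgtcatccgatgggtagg
The interferon element, GAAA and again GAAA with 2 bases between, was in 5 of 60 member windows (8.33%), among them the kinase gene Eif2ak2, and in 3.99% of all.

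Ratios of paralogs within a library do not depend on how libraries are scaled. Of 7 pairs considered, 3 had enough reads. Eif4g1 over Eif4g2 was at a log2 ratio of -0.41, -0.75, -0.58 and -0.73 in DMSO libraries and -0.07, 0.07, 0.02 and 0.00 in benzamil libraries. The scaffold pair was thus close to equal numbers of reads in every benzamil library and tilted to Eif4g2 in every DMSO library, a difference of 0.62 between the groups. The untreated libraries gave 0.05 and -1.47. Eif1 over Eif1b, which encode closely related start-codon factors, was 2.24 ± 0.53 with DMSO and -0.04 ± 1.81 with benzamil (SD, n = 4 each; exact permutation p = 0.0286), a difference of -2.28 that was -1.46 without benzamil library 4.

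Eif4ebp1 over Eif4ebp2, which encode repressors of the cap-binding protein eIF4E, was -2.41 ± 0.41 with DMSO and -3.87 ± 0.90 with benzamil. Eif4ebp1 had only 50 and 6 reads in these groups and was under the filter of the edgeR fit. In all 3 pairs the groups did not overlap, and the exact two-sided permutation test over 4 against 4 libraries gave p = 0.0286 each, the smallest p the design allows (adjusted p = 0.0286). A ratio shows that the partners changed unequally, not which of them changed. For Eif4a1 and Eif4a2 the reads were too few (60 and 16 with DMSO, 8 and 5 with benzamil), and the other 3 pairs lack a partner among the genes used here.

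**Figure D4:**
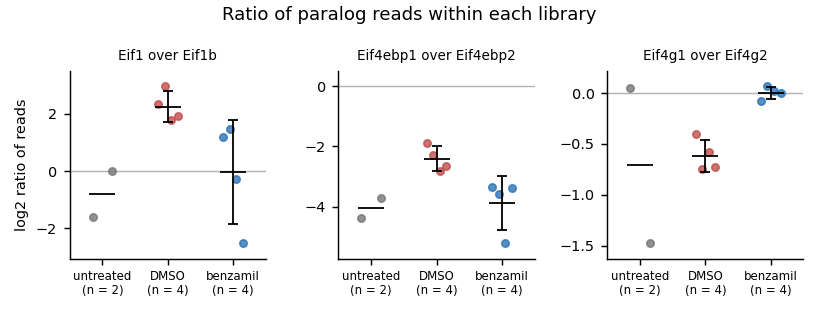
Log2 ratio of the reads of 2 paralogs in each library (points; 0.5 added to each count), with the group mean (horizontal line) and, for groups of 4, the SD (bars); the grey line marks equal reads. Eif4g1 over Eif4g2 sits near 0 in the 4 benzamil libraries and between -0.75 and -0.41 in the 4 DMSO libraries, and the other 2 ratios are lower with benzamil.

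The 11 members that changed between the treated groups were also listed with an adjusted p under 0.05 and the same direction in the authors' deposited table, which holds 2 members higher and 9 lower. Marker genes of several cell types moved with benzamil as well. Neutrophil markers fell in 4 of 4 tested (11121 to 18340 CPM with DMSO, 213 to 4257 with benzamil) and proliferation markers in 3 of 5 (957 to 1180 and 667 to 958 CPM). The neutrophil sum with DMSO was almost wholly S100a8 and S100a9 (means of 7573 and 7730 CPM). It therefore follows these genes and is no count of neutrophils. Cxcr2, Il1b and Retnlg had means of 53.2, 63.3 and 8.60 CPM with DMSO. Skeletal muscle markers rose in 8 of 14 (544 to 2428 and 1207 to 3482 CPM) and sebocyte markers in 3 of 4 (1519 to 2973 and 4252 to 7068 CPM). Keratinocyte markers rose in 3 of 9 (Krt2, Lor and Flg2) and fibroblast markers in 1 of 5 (525 to 1034 and 700 to 2208 CPM). None of 3 macrophage and dendritic cell markers passed, nor did the 1 tested T cell marker, and 1 of 5 neutrophil markers was at 0 in all benzamil libraries. Their part in the member values was not tested. In such bulk samples fewer cells of a type and less RNA per cell cannot be told apart.

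Comparing DMSO with untreated skin asked what imiquimod changed together with its solvent, whose separate parts cannot be told apart. Members rose and none fell: 12 of 59 rose (20.3%), whereas 9.93% of all tested genes rose and 8.45% fell. Of those that rose, Eif2a and Lars (0 untreated reads), Eif1 (1) and Eif1ad (2) passed the read filter only through treated libraries. With so few untreated reads a lower call was out of their reach. Among all tested genes 191 had 0 reads in 1 of the groups compared, 2 of them members. At an unadjusted p under 0.05 there were 21 higher members (35.6%, against 18.9% of all genes) and 1 lower (1.69%, against 14.4%), Eef2 (-0.56 ± 0.24). DESeq2 and limma also called 0 members lower, with 487 and 449 of all genes called lower. Groups did not overlap for 29 members higher with DMSO (49.2%, against 29.5% of all genes) and for 3 lower (5.08%, against 18.6%), which were Eef2, Eif3h and Cars, the last 2 named after their values were seen. The median log2 fold change was 0.77 over members and 0.18 over all genes, and both stayed at these values with genes of 0 untreated reads set at their bound. Limma on the deposited log2 values called 21 members and 1057 of all genes higher, and thinning to the smallest library left no member and 29 of all genes higher.

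**Figure D5:**
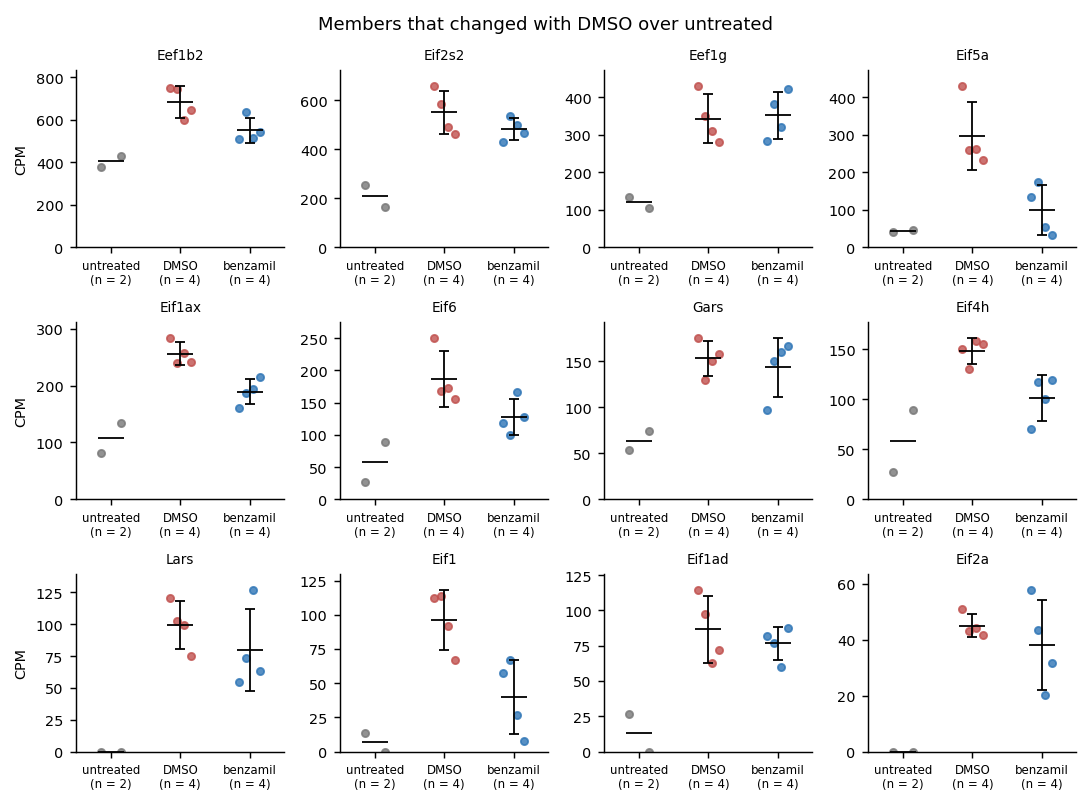
CPM of the 12 members that rose with DMSO over untreated skin, by library (points), with the group mean (horizontal line) and, for groups of 4, the SD (bars); every axis starts at 0. In each panel both untreated libraries lie below all 4 DMSO libraries.

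Start-codon factors rose in 3 of 5. Eif1 had 13.5 and 0 CPM in untreated libraries against 66.6 to 113 CPM with DMSO, that is 1 read against 199, or 14.4 times the level (exact 95% interval from counting, 2.55 to 570). Eif1ad had 2 reads against 189, or 6.82 times the level (1.86 to 56.7). Both untreated means were below the 21.2 CPM that 3 reads over the group are worth, and both calls were lost with DESeq2 (adjusted p = 0.0643 and 0.074) and without untreated library 2 (0.085 and 0.136). Eif1ax, which is X-linked, rose from 80.8 and 133 CPM to 284, 240, 258 and 242 CPM (1.27 ± 0.35, adjusted p = 0.0134), and without untreated library 1, the one with 0 CPM of Xist, it gave 1.03 (adjusted p = 0.143).

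In the eIF2 class 2 of 8 rose. Eif2s2 had 256 and 163 CPM untreated and 660, 586, 493 and 464 CPM with DMSO, clearly apart (1.39 ± 0.31, adjusted p = 0.00257), and kept its call without any single library. Eif2a had 0 untreated reads against 92, at least 2.21-fold higher with DMSO against 3 reads over the group, and its adjusted p was 0.106 without untreated library 1 and 0.0712 without library 2. No eIF3 subunit or kinase passed, and of the 8 cap-binding and helicase factors Eif4h rose (26.9 and 89.0 CPM to 150, 130, 158 and 155 CPM, 1.38 ± 0.48, adjusted p = 0.0451). That call was lost with DESeq2 (0.085), with the replicate number as a block (0.0771) and without DMSO library 1, 3 or 4 (0.0667, 0.0544 and 0.0596). Without untreated library 1 the value was 0.82 (adjusted p = 0.318), and without library 2 it was 2.55.

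Eif5a and Eif6 both rose. Eif5a went from 40.4 and 44.5 CPM to 233 to 431 CPM (2.82 ± 0.62, adjusted p = 0.00259) and kept its call without any single library. Eif6 had 26.9 and 89.0 CPM untreated and 250, 167, 173 and 155 CPM with DMSO (1.74 ± 0.49, adjusted p = 0.0139). Without untreated library 1 it gave 1.19 (adjusted p = 0.179), and without library 2 it gave 2.91.

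Of 5 elongation factors Eef1b2 and Eef1g, for eEF1B subunits, rose, and Eef1a1, Eef1d and Eef2 did not pass. Eef1g had 135 and 104 CPM untreated against 430, 348, 309 and 280 CPM with DMSO, well apart (1.52 ± 0.36, adjusted p = 0.0045), also without any single library. Eef1b2 rose from 377 and 430 CPM to 748, 745, 596 and 647 CPM (0.77 ± 0.26, adjusted p = 0.042), a call that was lost when DMSO library 1 or 2 or either untreated library was left out (0.0674 to 0.16).

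Lars and Gars rose among the 14 synthetases. Lars, for leucyl-tRNA, had 0 untreated reads against 208 with DMSO (121, 103, 99.3 and 75.0 CPM), at least 5.0-fold higher with DMSO. Gars, for glycyl-tRNA, had 53.8 and 74.2 CPM untreated and 176, 130, 151 and 158 CPM with DMSO (1.28 ± 0.45, adjusted p = 0.0468), and lost its call with DESeq2 (0.0965), with the replicate block (0.0886), without DMSO library 1 (0.0882) or 4 (0.0595) and without untreated library 1 (0.202) or 2 (0.0824). Tars, which fell with benzamil, had 26.9 and 148 CPM in the untreated libraries, which enclosed all treated values.

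The authors' deposited table of this comparison lists 8 members at an adjusted p under 0.05, all higher with DMSO, and 7 of the 12 are among them. Marker levels moved here too. Neutrophil markers rose from 44.5 and 215 CPM to 11121 to 18340 CPM (4 of 4 tested, with 3 of 5 at 0 in untreated skin). Proliferation markers rose from 323 and 430 CPM to 957 to 1180 CPM (5 of 5, with 3 of 5 at 0 in untreated skin). Cxcr2, Il1b, Cdk1, Ccna2 and Cdc20 had 0 untreated reads and passed the read filter only through treated libraries. A lower call was out of their reach. Mki67 and Top2a had 14 and 39 untreated reads. The neutrophil sum was again almost wholly S100a8 and S100a9 and is no count of neutrophils. Fibroblast markers fell from 8261 and 18924 CPM to 525 to 1034 CPM (5 of 5) and skeletal muscle markers from 5562 and 6164 CPM to 544 to 2428 CPM (10 of 14). Of the keratinocyte markers 5 of 9 rose and 1 fell, of the sebocyte markers 2 of 4 fell, and the 1 tested T cell marker fell. Their part in the member values was not tested.

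Benzamil over untreated skin shares its libraries with the comparisons above, so its values stand beside them and are no separate evidence. Of 59 members 4 rose (6.78%, against 2.44% of all genes) and none fell (against 1.56%). At an unadjusted p under 0.05 there were 17 higher members (28.8%, against 11.7% of all genes) and 0 lower (against 7.24%). DESeq2 called 4 members higher and 0 lower, with 81 and 125 of all genes. Groups did not overlap for 18 members higher (30.5%, against 19.5%) and 0 lower (against 12.9%). The median was 0.54 over the members and 0.17 over all genes, or 0.14 with genes of 0 reads in a group at their bound.

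The members that rose were Eef1a1 (1.00 ± 0.25, adjusted p = 0.0237), Eef1g (1.53 ± 0.37, adjusted p = 0.0168), Eif2s2 (1.20 ± 0.31, adjusted p = 0.0277) and Lars. Lars had 67 reads against 0, at least 3.50-fold higher, and passed the read filter only through treated libraries. With total counts alone the call of Lars was the 1 that held, and the split over all genes was 63 higher and 105 lower (37.5% higher against 61%). Without untreated library 2 none of the 4 calls was left (adjusted p of 0.081 to 0.172). Without untreated library 1 Eef1a1 (0.0558), Eef1g (0.0583) and Lars (0.0941) lost theirs, whereas Eif2s2 was still called (0.0455). Eef1a1 also lost its call with the replicate block (0.0581), and Eif2s2 without benzamil library 2 (0.0528) or libraries 3 and 4 (0.052).

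The nearest neighbours of the module outside the symbol rule were counted from lists of named genes. Of 8 tested genes for release, recycling and poly(A) binding, Pabpc1 and Abce1 fell with benzamil and Pdcd4 rose. Pabpc1, the poly(A)-binding protein gene, went from 784 ± 423 CPM untreated to 1668 ± 238 with DMSO and 1007 ± 70.8 with benzamil (1.1 ± 0.29 for DMSO over untreated, adjusted p = 0.00949; -0.73 ± 0.21 for benzamil over DMSO, adjusted p = 0.015). Pdcd4, which encodes an inhibitor of the eIF4A helicase, ran the opposite way, with 269 ± 171, 130 ± 24.7 and 343 ± 56.5 CPM (-1.08 ± 0.34, adjusted p = 0.0291, and 1.39 ± 0.23, adjusted p = 0.000128). Abce1, which splits ribosomes after release, changed by -0.69 ± 0.24 with benzamil (adjusted p = 0.0371). The median log2 fold change of the 8 was -0.15 with benzamil over DMSO and 0.47 with DMSO over untreated skin, beside -0.01 and 0.18 over all genes.

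Among 12 tested genes of the amino acid response under Atf4, 4 fell with benzamil and none rose, and 3 rose with DMSO over untreated skin. Over all tested genes 12.1% fell with benzamil and 9.93% rose with DMSO. Vldlr, Nupr1 and Psat1 of this list had fits above 0 with benzamil (0.97, 0.70 and 0.04) and did not pass. The medians over the 12 tested genes were -0.86 with benzamil over DMSO and 0.91 with DMSO over untreated skin. The second includes Slc7a11 and Shmt2, which had 0 untreated reads. Slc7a11, the cystine transporter gene, had 0 reads untreated, 232 ± 29.9 CPM with DMSO and 30.4 ± 7.18 CPM with benzamil (-2.86 ± 0.27, adjusted p = 3.82e-07). The others that fell with benzamil were the amino acid transporter genes Slc3a2 (-1.08 ± 0.39, adjusted p = 0.0454) and Slc7a1 (-0.89 ± 0.31, adjusted p = 0.0425), and the transcription factor gene Cebpb (-0.96 ± 0.24, adjusted p = 0.0054). Slc7a11, Slc7a1 and Cebpb rose with DMSO, on 0, 1 and 5 untreated reads. Slc7a11 and Slc7a1 passed the read filter only through treated libraries, so a lower call was out of their reach. Atf4 itself stood at 569 ± 118 CPM with DMSO and 559 ± 258 with benzamil (-0.07 ± 0.24, adjusted p = 0.87), and Asns, the asparagine synthetase gene, did not pass (-0.82 ± 0.39, adjusted p = 0.13). Control of Atf4 by translation would not be seen in mRNA levels.

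Of 7 tested genes of the mTORC1 pathway, which drives cap-dependent translation, the inhibitor gene Deptor fell with benzamil (-1.44 ± 0.36, adjusted p = 0.00602). Over all tested genes 12.1% fell. The inhibitor genes Akt1s1 and Tsc2 had fits above 0 (1.14 and 0.96) and did not pass (adjusted p = 0.0593 and 0.0792). The median, over activators and inhibitors together, was -0.42. With DMSO over untreated skin the activator gene Rheb rose (adjusted p = 0.0414, on 3 untreated reads and 187 with DMSO). The inhibitor gene Akt1s1 fell (-2.81 ± 0.57, adjusted p = 0.00129). Over all tested genes 9.93% rose and 8.45% fell. Deptor and Tsc2 did not pass in that comparison (1.43 and -1.27, adjusted p = 0.158 and 0.184). None of the 5 tested synthetase and scaffold genes outside the rule, the 1 tested mitochondrial factor or the 2 tested hypusine and diphthamide enzymes passed in any comparison. With benzamil over untreated skin no gene of any of these pathway lists passed. The alternatives named above were not run for single genes outside the module.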

How the data were processed

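Libraries were made from 500 ng of RNA with a 3' mRNA kit that adds molecular identifiers and were sequenced on a MiSeq, per the labels' protocols. Whether reads were collapsed by identifier is not given in the sources used here. The authors used the build mm10 with STAR, featureCounts and DESeq2, per the submitters' processing notes, with versions not given in the sources used here. The authors deposited variance-stabilised log2 values per gene, and tables of DESeq2 results with a mean signal (normalised counts), log2 fold change, test score and p-values, per the file headers. The count table the authors deposited carries human gene identifiers only and was used for no comparison.

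The variance-stabilised values were turned back into reads. Every value (100%) came out whole within 0.05 reads, and the 39116 DMSO values shared by both tables were equal. The 9779 genes in both tables were joined. Since the deposited unit is log2, edgeR (4.0.16, R 4.3.3) ran on these recovered reads, with limma (3.58.1) on the log2 values and DESeq2 (1.42.0) as alternatives. The main test was edgeR's quasi-likelihood F test on all 10 libraries in 1 fit, with TMM scaling and filterByExpr (minimum 10 reads, total 15), which left 5245 genes and called 520 higher and 635 lower with benzamil over DMSO. P-values were adjusted by Benjamini-Hochberg over all of these, and a gene was called at an adjusted p under 0.05. Standard errors are approximate and were taken from the fold change and the F statistic (log2 value over root F). The scripts were tested on simulated data. Intervals cover counting error only.

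Named members are those called in any comparison and the 2 of highest mean CPM in each class. The members and lists were chosen with earlier results of these data known. Gene positions are from GENCODE M21 (mm10) and promoters from RefSeq (GRCm38.p6). Alternatives were other scalings (DESeq2 size factors, total counts, no ribosomal RNA genes), no low-count filter, the groups compared alone, thinning, the replicate number as a block and leaving out libraries.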

Additional observations from a re-analysis of the deposited data

Results flagged for a closer look

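In 5 of 66 groups of 4 libraries looked at among the named members, 1 library stood apart from the other 3. Chance alone flags about 1 in 20 groups. Eef1a1 was at 2058 CPM in DMSO library 1 and 2413 to 2453 CPM in the others, and Eif5a was at 431.2 CPM in the same library and 233.2 to 261.2 CPM in the others. Eif2ak2 was at 29.43 CPM in DMSO library 3 and 13.88 to 16.21 CPM in the others. In benzamil library 4 Eif4g2 was at 436.8 CPM, with 480.3 to 485.3 CPM in the others, and in benzamil library 3 Eif4enif1 was at 6.671 CPM, with 31.77 to 36.73 CPM in the others.

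The deposited count table, which entered no comparison, lists 61533 identifiers that are all human. Symbols of the module match 235 of its rows, of which 126 hold counts. The highest treated library, DMSO library 1, had 3614 counts on them, and the untreated libraries had 161 and 114. As a share of the counts in that table this was 2.34% to 2.64% with DMSO, 2.08% to 2.20% with benzamil, and 1.55% and 1.303% in untreated skin.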

How the results depend on the processing

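Of 27 member calls, 432 values under an alternative were computed: 356 stayed called in the same direction, 76 lost the call and 0 reversed. The 2 calls that held under every alternative run were Iars with benzamil over DMSO (17 values) and Lars with DMSO over untreated (14 values). Both had fewer alternatives than most calls of their comparison, since a gene under the read filter of a run has no value there. Eif3e, Eif5a and Eif2s1 with benzamil over DMSO each held in 17 and lost the call only with thinning. Among members without a call, 25 of 48 changed sign under some alternative with benzamil over DMSO, 20 of 47 with DMSO over untreated and 28 of 55 with benzamil over untreated. Limits of depth were largest for the untreated libraries, and limma was not run for benzamil over untreated, whose groups are in no single deposited table.

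With benzamil over DMSO, total counts gave 0 members higher and 15 lower (248 and 1009 genes), and thinning 0 and 0 (14 and 11 genes). Without the low-count filter 1 member was higher. Leaving out benzamil libraries 3 and 4, chosen after seeing the data, gave 1 higher and 5 lower members (284 and 300 genes). Leaving out each library gave 1 to 2 members higher and 8 to 10 lower, and 291 to 466 genes higher and 356 to 614 lower, with the lowest of both gene counts without DMSO library 1.

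With DMSO over untreated, limma called 21 members and 1057 genes higher, DESeq2 called 329 genes higher, and thinning left 0 members (29 genes higher, 26 lower). Leaving out each library gave 9 to 12 members higher, 225 to 532 genes higher and 208 to 429 lower, with the lowest gene counts without untreated library 1.

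With benzamil over untreated, 1 member was higher with total counts (63 genes) and 0 after thinning (12 genes higher, 7 lower). Without the low-count filter 200 genes were higher. DESeq2 called 81 higher and 125 lower, and fitting only the groups compared called 77 higher. Without benzamil libraries 3 and 4 there were 43 genes lower. Leaving out each library gave 0 to 5 members higher, 63 to 111 genes higher and 36 to 71 lower, with 0 members without untreated library 2.

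The ratio differences between benzamil and DMSO ran from -2.77 to -1.46 for Eif1 over Eif1b, -1.64 to -1.02 for Eif4ebp1 over Eif4ebp2 and 0.58 to 0.69 for Eif4g1 over Eif4g2 when each library was left out. Replicate numbers showed no clear pairing. Same-numbered DMSO and benzamil libraries correlated at 0.069, 0.001, 0.041 and 0.068 in their deviations from group means. Not every library correlated best with its own number. At this low depth counting error can hide a pairing, so these values cannot exclude one. With the replicate block, members called were 2 higher and 9 lower with benzamil over DMSO, 12 higher with DMSO over untreated and 3 higher with benzamil over untreated (84 genes higher). For values that moved the cause was not tested.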

Other observations

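Members under the read filter included the helicase subunit gene Eif4a1, which had 0 reads in untreated libraries, 60 with DMSO (26.8 ± 11.7 CPM, SD, n = 4) and 8 with benzamil (6.30 ± 7.57 CPM, SD, n = 4). The repressor gene Eif4ebp1 had 0, 50 and 6 reads in the same order (21.99 ± 7.39 and 6.01 ± 4.32 CPM). Both were named after their values were seen, and neither was tested in the fit across genes.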
